A study of Mus musculus with 6 samples.

Results

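The liver chemokine genes described here are 10 genes chosen by symbol: Cxcl1, Cxcl9, Cxcl10, Cxcl12, Cxcl13, Ccl2, Ccl5, Ccl6, Ccl9 and Cx3cl1. All 10 were found in the deposited table of 49315 genes, each as 1 row, and all 10 passed the filter on low counts. The libraries came from hepatocytes of male C57BL/6J mice, labelled wild-type for control and miR-206 overexpression for the other group, injected hydrodynamically at 8 weeks of age, a high-pressure delivery that loads plasmid DNA into liver cells. According to the design text, 3 mice received 20 µg of a plasmid carrying miR-206 and GFP behind the Ttr promoter, which is active mainly in hepatocytes, together with 0.8 µg of another plasmid expressing Sleeping Beauty, the transposase that inserts such cargo into the genome. After 4 weeks the perfused hepatocytes were sorted on GFP, with the negative cells as control and the positive cells as miR-206 (3 libraries in each group). The sample labels instead give the control cells an empty vector as their treatment. These sources describe the control cells differently, and which one holds was not tested. The mRNA libraries do not measure mature miR-206, so its overexpression was not checked here. The contrast therefore holds the sort gate, GFP and plasmid uptake along with miR-206, and these cannot be told apart.

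Chemokines are small secreted proteins that bind G protein-coupled receptors and draw leukocytes along a gradient. In the liver, Kupffer cells, sinusoidal endothelial cells, stellate cells, bile duct cells and stressed hepatocytes are all known sources. The family is split by the spacing of its first cysteines into CC, CXC and CX3C members, and by function into inflammatory chemokines, induced through NF-κB and interferon signalling, and homeostatic ones such as Cxcl12, which are made constitutively.

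The microRNA itself is shown first, with the only match to its whole seed in the longest 3′ untranslated regions of the 10 genes. MicroRNAs act mainly through seed matches, and shorter or shifted matches were not searched. The mature miR-206 sequence (RefSeq, GRCm38.p6, chr1:20679055-20679076, plus strand) carries its seed, bases 2 to 8, in capitals, and the Cxcl10 line gives the surrounding 3′ untranslated region (GENCODE M21, chr5:92347634-92347663, minus strand) with the match to the seed in capitals.

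mmu-miR-206-3p: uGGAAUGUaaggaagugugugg

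Cxcl10 site: tcttaggtcatACATTCCtagtgtctagaa

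The match pairs with the whole seed but is not followed by the A that marks the strongest class of site. The longest annotated 3′ untranslated regions of the other members, from 199 bases in Ccl5 to 5188 bases in Cxcl12, held 0 matches of this kind. Among 16865 tested genes with such a region, 1971 (11.7%) held at least 1 match. A match is a description of letters and not a measured site of repression, and Cxcl10 did not pass the test of the comparison, as described below.

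Total counts ran from 8966590 to 15244017 in control cells and from 4157947 to 5724329 in miR-206 libraries. Control 1 stood apart from the other controls, with log2 CPM correlations of 0.854 and 0.856 to them against 0.965 between them, and a mitochondrially encoded share of 36.0% against 9.16% and 10.4%. That share was 11.2%, 63.8% and 48.7% in miR-206 libraries. Background was read from receptor genes of the olfactory and vomeronasal families, since liver cells are not known to express them. These gave 2.95, 1.40 and 1.22 counts for each kb of exon in control cells against 5.31, 3.61 and 5.24 in miR-206 cells. A count of 0 allows up to 3 counts, which is 0.311 to 0.546 normalised CPM in a library (CPM, scaled by TMM). Intervals and limits cover counting error only. The 6 libraries are treated as separate samples, and p-values measure the spread between them.

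Of the 10 chemokine genes, 6 fell in miR-206 cells and 0 rose. Ccl6, Ccl9, Ccl5, Cxcl1, Cxcl12 and Cxcl13 passed the edgeR quasi-likelihood test at an adjusted p under 0.05, whereas Cxcl9, Cxcl10, Ccl2 and Cx3cl1 did not. For these 6, the highest miR-206 level lay under the lowest control level. Falls were common in these libraries: 29.6% of the 24382 tested genes fell, 25.8% rose, and 30.3% lay below every control without overlap. The median log2 fold change was -2.75 over the 10 members and 0.45 over all tested genes. The split depended on the scale. With libraries scaled on 25 hepatocyte markers, which moved the median of all genes to 2.85, Cxcl9, Cxcl10 and Ccl2 passed as higher and Ccl6 and Cxcl13 as lower, against 61.8% of genes higher and 0.767% lower.

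**Figure D1:**
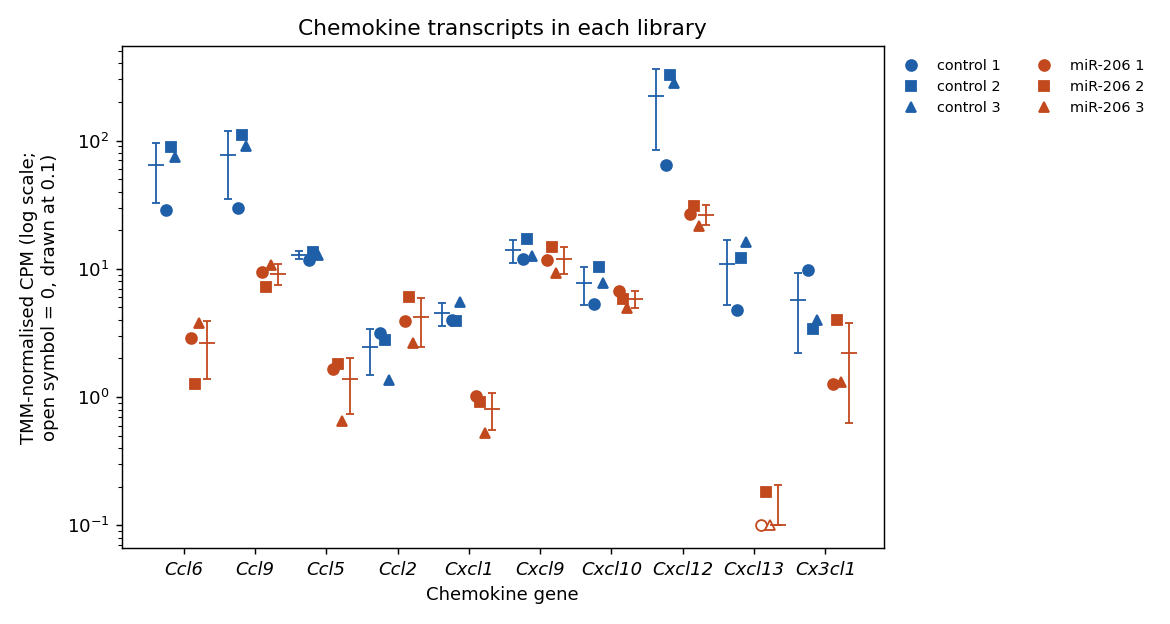
TMM-normalised CPM of the 10 chemokine genes on a log axis, with 1 point for each library and bars for the mean ± SD of 3 libraries in each group, values and means under 0.1 being drawn at 0.1. Ccl6, Ccl9, Ccl5, Cxcl1, Cxcl12 and Cxcl13 show no overlap between groups, whereas Cxcl9, Cxcl10, Ccl2 and Cx3cl1 do.

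Ccl6 and Ccl9 are CC chemokines of rodents that signal through Ccr1 and are made by macrophages and other myeloid cells. Ccl6 (ENSMUSG00000018927, chr11:83587882-83593087, GRCm38), with libraries 1 to 3 of each group in order here and below, had 217, 854 and 656 counts in control cells against 23, 7 and 29 in miR-206 cells. Even the lowest control held several times the highest miR-206 count, although control 1 was far below the other controls. On the normalised scale Ccl6 fell from 63.9 ± 31.3 to 2.66 ± 1.28 CPM (SD, n = 3 in each group), which is a log2 change of -4.55 (SE 0.56, edgeR adjusted p = 0.00032). Ccl9 (ENSMUSG00000019122, chr11:83572919-83578636) had 225, 1059 and 805 counts in control cells against 75, 40 and 82 in miR-206 cells. Its order over the controls was that of Ccl6, with control 1 lowest, and the groups did not overlap. Ccl9 fell from 76.9 ± 41.9 to 9.17 ± 1.75 CPM, a log2 change of -3.06 (SE 0.51, edgeR adjusted p = 0.000978). With hepatocyte scaling Ccl9 did not pass (-0.043, edgeR adjusted p = 0.949).

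Both genes lie side by side on the minus strand, 9.245 kb apart, with 0 protein-coding genes between them, and Ccl5 lies 42.4 kb further along. A local alignment of the sequence around their starts found 59 identical bases in 74 aligned positions. The block ran from position -59 to 14 in Ccl6 and from -18 to 48 in Ccl9, with the start at 0. It is thus mostly upstream in Ccl6 and mostly past the start in Ccl9, and no chance level was computed. The ratio of Ccl6 to Ccl9 counts within a library, which no scaling can alter, was 0.964, 0.806 and 0.815 in control cells and 0.307, 0.175 and 0.354 in miR-206 libraries. Every miR-206 ratio lay below every control ratio, a difference that did not pass (exact two-sided permutation p = 0.1, the smallest that 3 against 3 allows, and 0.133 adjusted over the 8 ratios computed). These 8 ratios were chosen after the counts were seen and were not corrected for background. In miR-206 libraries Ccl6 stood at 1.08 to 3.08 times the background and Ccl9 at 3.64 to 5.14 times.

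Macrophage markers moved with these genes, and so did markers of some other cell types. All 13 sinusoidal endothelial markers and 21 of 25 hepatocyte markers fell, where 29.6% of all tested genes did. All 13 listed Kupffer cell markers fell. With hepatocyte scaling 7 of these 13 fell and 0 rose, where 0.767% of all tested genes fell and 61.8% rose. Their summed level was 413 to 1761 normalised CPM in control cells and 56.2 to 63.5 in miR-206 libraries. Control 1 was the lowest control, as for Ccl6 and Ccl9, but also for every other marker sum except those of bile duct and platelet markers. None of the 13 was at 0 over the miR-206 libraries and 0 lay at or under the background there. The part of these markers in the fall of the 2 chemokines was not tested. In sorted bulk samples, fewer cells of a type and less RNA per cell cannot be told apart. Set against the summed Kupffer markers, Ccl6 stood at 0.0694, 0.0503 and 0.0438 in control cells and 0.0518, 0.0201 and 0.0640 in miR-206 libraries, which overlapped (exact permutation p = 0.7). Ccl9 stood at 0.0720, 0.0624 and 0.0538 against 0.169, 0.115 and 0.181, higher in every miR-206 library (exact permutation p = 0.1, adjusted 0.133).

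Ccl5, which attracts T cells, NK cells and monocytes and is made in quantity by activated T and NK cells (ENSMUSG00000035042, chr11:83525778-83530518), had 89, 131 and 114 counts in control cells against 13, 10 and 5 in miR-206 cells. The controls lay close together, control 1 included, and far above the miR-206 libraries. Ccl5 fell from 12.8 ± 0.928 to 1.37 ± 0.628 CPM, a log2 change of -3.22 (SE 0.44, edgeR adjusted p = 0.00042). It did not pass with hepatocyte scaling (-0.63, edgeR adjusted p = 0.549). Markers of T and NK cells summed to 46.5 to 59.8 CPM in control cells and 43.5 to 56.4 in miR-206 libraries. Of 11 tested, 2 fell and 2 rose, with log2 changes from -7.49 to 1.40, where 29.6% of all tested genes fell and 25.8% rose. With hepatocyte scaling 1 of the 11 fell and 7 rose, where 0.767% of all tested genes fell and 61.8% rose. Of the 12 listed, 5 lay at or under the background over the miR-206 libraries, so that the summed level is in part background. At most 3 counts over those libraries were held by 2 of the 12, so the sum does not show that each marker kept its level. The part of these markers in the fall of Ccl5 was not tested.

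Ccl2, the monocyte attractant that acts through Ccr2 (ENSMUSG00000035385, chr11:82035571-82037453), had 24, 27 and 12 counts in control cells against 31, 33 and 20 in miR-206 cells. These libraries are the shallower ones, and their raw counts nonetheless overlapped those of the controls. Normalised levels were 2.44 ± 0.957 and 4.18 ± 1.71 CPM, a log2 change of 0.76 (SE 0.52, edgeR adjusted p = 0.225) that did not pass. With hepatocyte scaling the value was 3.25 (SE 1.01, adjusted p = 0.0159), and it passed with library size alone and with upper-quartile factors too.

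Cxcl13, the B cell attractant that acts through Cxcr5 (ENSMUSG00000023078, chr5:95956951-95961068), had 36, 116 and 143 counts in control cells against 0, 1 and 0 in miR-206 cells. The single count over the 3 miR-206 libraries against 295 in the controls gives a ratio of 0.00415 (95% counting interval 0.000105 to 0.0233) after scaling. The fall passed the edgeR test (adjusted p = 0.00032). The fitted fold change rests on the prior count and is not given. Markers of B and plasma cells summed to 687 to 795 CPM in control cells and 36.6 to 40.1 in miR-206 libraries. Of these 9 markers 6 fell and 2 rose, where 29.6% of all tested genes fell and 25.8% rose. With hepatocyte scaling 3 of the 9 fell and 2 rose, where 0.767% of all tested genes fell and 61.8% rose. The Kupffer markers fell as above. The part of these B cell, plasma cell and Kupffer markers in the result was not tested.

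Cxcl12, the homeostatic ligand of Cxcr4 and Ackr3 that stromal and endothelial cells make (ENSMUSG00000061353, chr6:117168535-117181367), had the highest counts of the 10 in every library. It had 489, 3108 and 2500 counts in control cells against 213, 170 and 165 in miR-206 cells. Control 1 lay nearer to the miR-206 libraries than to the other controls, yet above all of them. Cxcl12 fell from 223 ± 139 to 26.5 ± 4.68 CPM, a log2 change of -3.08 (SE 0.61, edgeR adjusted p = 0.00244). The call was lost with hepatocyte scaling (0.09, edgeR adjusted p = 0.881). All 13 sinusoidal endothelial markers fell (672 to 790 against 151 to 161 summed CPM), as did 5 of 10 tested stellate cell markers (293 to 876 against 117 to 139). The share over all tested genes was 29.6%. With hepatocyte scaling 2 of the 13 endothelial markers fell and 1 rose, and 0 of the 10 stellate cell markers fell and 4 rose. On that scale 0.767% of all tested genes fell and 61.8% rose. Control 1, the lowest control for Cxcl12, was also the lowest for every marker sum except those of bile duct and platelet markers. The part of these markers was not tested.

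Cxcl9 and Cxcl10 are ligands of Cxcr3, induced by interferon, that draw activated T cells and NK cells. They lie 18.558 kb apart on chromosome 5 with 0 protein-coding genes between them. Cxcl9 (ENSMUSG00000029417, chr5:92321347-92328079) had 91, 165 and 112 counts in control cells against 93, 82 and 71 in miR-206 cells. Its groups overlapped, at 13.9 ± 2.77 and 11.99 ± 2.82 CPM (log2 fold change -0.22, SE 0.32, edgeR adjusted p = 0.549). Cxcl10 (ENSMUSG00000034855, chr5:92346638-92348889) had 40, 99 and 68 counts in control cells against 53, 32 and 38 in miR-206 cells, and its groups overlapped too. Its levels were 7.75 ± 2.49 and 5.83 ± 0.865 CPM (log2 fold change -0.41, SE 0.38, edgeR adjusted p = 0.357). A p that misses the threshold does not show that their levels were alike. Cxcl10 shares 133 exonic bases with Art3 on the other strand, and since the strand setting of the counting is not given, reads there cannot be assigned to one of them.

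The direction of both genes turned with the scale. Cxcl9 had log2 fold changes of 0.64 with upper-quartile factors, 0.84 with library size alone and 2.48 with hepatocyte scaling (adjusted p = 0.0104), and Cxcl10 had 0.48, 0.72 and 2.36 (adjusted p = 0.0166 for the last). Ratios within a library are free of this but are not corrected for background. Cxcl9 to Cxcl10 stood at 2.28, 1.67 and 1.65 in control cells and 1.75, 2.56 and 1.87 in miR-206 libraries, which overlapped (exact permutation p = 0.5). The ratio of Cxcl9 to Cxcl12 was 0.186, 0.0531 and 0.0448 in control cells and 0.437, 0.482 and 0.430 in miR-206 libraries. The ratio of Ccl5 to Cxcl9 was 0.978, 0.794 and 1.02 against 0.140, 0.122 and 0.0704. Neither of these last ratios overlapped between the groups (exact permutation p = 0.1 for each, adjusted 0.133). These ratios were picked after Cxcl12 and Ccl5 were seen to fall, so they restate those falls. The shares of the 10 genes' summed counts moved with the falls of the abundant members: Cxcl9 took 16.7% to 20.4% in miR-206 cells against 2.49% to 6.92%. Cxcl10 took 7.96% to 10.2% against 1.51% to 3.04%, and Ccl2 took 4.72% to 8.21% against 0.267% to 1.83%. The shares too are uncorrected for background, to which genes add by exonic length, so they may in part reflect length. In miR-206 libraries Cxcl9, Cxcl10, Cxcl12 and Ccl2 stood at 3.22 to 8.04 times the background, and Ccl5 at 0.994 to 2.89 times. Against the summed Kupffer markers, Cxcl9 stood at 0.0291, 0.00972 and 0.00749 in control cells and at 0.209, 0.235 and 0.157 in miR-206 cells, again without overlap (exact permutation p = 0.1, adjusted 0.133).

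Cxcl1, a neutrophil attractant that acts through Cxcr2 (ENSMUSG00000029380, chr5:90891241-90893115), had 30, 38 and 49 counts in control cells against 8, 5 and 4 in miR-206 cells. The groups did not overlap, and every miR-206 count was small. Cxcl1 fell from 4.49 ± 0.922 to 0.815 ± 0.257 CPM, a log2 change of -2.44 (SE 0.54, edgeR adjusted p = 0.00393). The fall was lost with library size alone (-1.35, edgeR adjusted p = 0.117) and with hepatocyte scaling (0.14). Neutrophil markers summed to 16.9 to 43.4 CPM in control cells and 21.8 to 31.7 in miR-206 libraries. Of 7 tested, 2 fell and 0 rose, where 29.6% of all tested genes fell and 25.8% rose. With hepatocyte scaling 0 of the 7 fell and 4 rose, where 0.767% of all tested genes fell and 61.8% rose.

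Cx3cl1, the membrane-bound chemokine that binds Cx3cr1 and is made by epithelial and endothelial cells (ENSMUSG00000031778, chr8:94772009-94782427), had 74, 33 and 35 counts in control cells against 10, 22 and 10 in miR-206 cells. It was highest in control 1, and miR-206 library 2 reached the level of controls 2 and 3 after scaling. Levels were 5.72 ± 3.52 and 2.19 ± 1.57 CPM (log2 fold change -1.41, SE 0.62, edgeR adjusted p = 0.0744), and the gene did not pass. It passed as lower without miR-206 library 2 (-2.23, edgeR adjusted p = 0.0316), with no filter on low counts (-1.59, edgeR adjusted p = 0.0199) and by DESeq2 (-1.58, adjusted p = 0.049). Bile duct markers were likewise highest in control 1, at 3087 summed CPM against 868 and 1062 in the other controls. Among miR-206 libraries, however, they were lowest in library 2 (54.6 CPM against 113 and 87.8), where Cx3cl1 was the highest of the 3. Their part in the level of Cx3cl1 was not tested.

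Regulatory sequence upstream of Cxcl10, which did not pass, and of Cxcl1, which fell, is given because both are textbook NF-κB targets and differ in their call here, a difference between genes that was not tested. Each line is the 250 bases before the start (RefSeq, GRCm38.p6, Cxcl10 at chr5:92348890-92349139 on the minus strand and Cxcl1 at chr5:90890995-90891244 on the plus strand). Capitals mark matches, on either strand, to the κB consensus and to the interferon-stimulated response element searched as GAAANNGAAA.

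Cxcl10: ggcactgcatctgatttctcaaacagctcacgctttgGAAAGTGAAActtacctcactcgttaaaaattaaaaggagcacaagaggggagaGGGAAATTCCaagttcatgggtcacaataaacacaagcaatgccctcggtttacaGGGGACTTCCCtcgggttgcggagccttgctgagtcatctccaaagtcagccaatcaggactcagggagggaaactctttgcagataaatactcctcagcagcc

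Cxcl1: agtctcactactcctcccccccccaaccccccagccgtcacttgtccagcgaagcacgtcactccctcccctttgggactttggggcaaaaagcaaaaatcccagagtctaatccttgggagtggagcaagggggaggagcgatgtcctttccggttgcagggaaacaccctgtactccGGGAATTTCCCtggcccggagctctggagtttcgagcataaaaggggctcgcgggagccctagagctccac

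Cxcl10 held the interferon-type match at bases 213 to 204 before the start and 3 κB matches, at 159 to 150 and at the overlapping positions 104 to 95 and 103 to 94. Cxcl1 held 2 overlapping κB matches, at 71 to 62 and 70 to 61. Of the 8 members with an upstream sequence in the table (Ccl2 and Ccl5 had no entry), Ccl9 also held 1 κB match and none of the others held either motif. Of 32851 upstream sequences of this length, 7.25% held a κB match and 2.98% the interferon-type match. The matches are letters in a window and carry no measurement of binding.

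Levels can be compared between genes only per length. In the controls Ccl6 was highest at 35.6 ± 17.4 normalised CPM per exonic kb, followed by Cxcl12 at 27.3 ± 17.0, Ccl9 at 25.3 ± 13.8, Ccl5 at 13.3 ± 0.967 and Cxcl13 at 9.56 ± 5.04. Cxcl9, Cxcl10, Cxcl1, Ccl2 and Cx3cl1 followed, from 4.62 ± 0.919 down to 1.46 ± 0.896. Each gene overlapped the next in this order. In the miR-206 libraries Cxcl9 came first at 3.98 ± 0.934, followed by Ccl2 at 3.67 ± 1.50, Cxcl12 at 3.24 ± 0.572, Ccl9 at 3.01 ± 0.575 and Cxcl10 at 2.59 ± 0.384, each overlapping the next. Cxcl10 did not overlap Ccl6, which came next at 1.48 ± 0.713, and the remaining genes were Ccl5, Cx3cl1, Cxcl1 and, apart from these, Cxcl13 at 0.0527 ± 0.0913.

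Relative to the density of receptor-gene counts in the same library, all 10 genes stood at 5.43 to 341 times the background in the controls. In the miR-206 libraries Cxcl9 stood at 5.80, 7.54 and 4.49 times, Ccl2 at 5.13, 8.04 and 3.35, Cxcl12 at 4.90, 5.76 and 3.85 and Cxcl10 at 4.43, 3.94 and 3.22. Ccl6 stood at 2.41, 1.08 and 3.08 times and Ccl5 at 2.55, 2.89 and 0.994. Cxcl1 lay below the background in every miR-206 library, at 0.803, 0.739 and 0.407 times, and so did Cxcl13. Cx3cl1 did in 2 of the 3, at 0.479, 1.55 and 0.486 times. For these last genes the counts do not show whether any transcript was present.

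**Figure D2:**
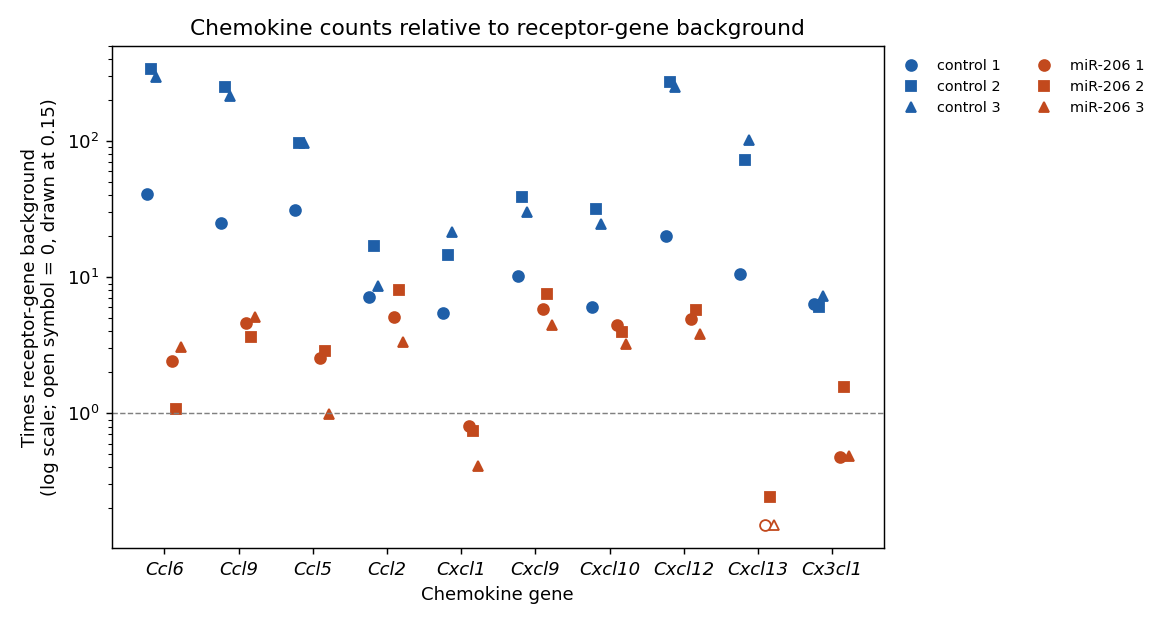
Counts of each chemokine gene divided by the count expected from olfactory and vomeronasal receptor genes over the same exonic length, on a log axis, with 1 point for each library and a dashed line at 1. All control points lie above the line, whereas Cxcl1, Cxcl13 and 2 of 3 points of Cx3cl1 lie below it in miR-206 libraries.

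After subtraction of that background and a filter keeping protein-coding genes at 10 or more times its level on average, 6 of the 10 genes remained. All 6 were kept through the controls: none reached 10 times the background in any miR-206 library, the highest being Cxcl9 at 7.54 times. Their values are therefore given as a description and support no call. Ccl6 (-2.29, SE 0.61, edgeR adjusted p = 0.024) and Cxcl13 (adjusted p = 0.0173) were past the threshold as lower, and Cxcl9 (2.50, SE 0.40, adjusted p = 0.00591) as higher. Ccl9 (-0.29, adjusted p = 0.465), Cxcl12 (-0.22, adjusted p = 0.654) and Ccl5 (-1.20, adjusted p = 0.359) did not pass. In this fit 15.8% of 4295 genes fell and 19.5% rose. The median log2 change of all genes was -0.13 in this fit. With this fit set aside, Ccl6 and Cxcl13 were the only members past the test as lower under every other alternative.

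**Figure D3:**
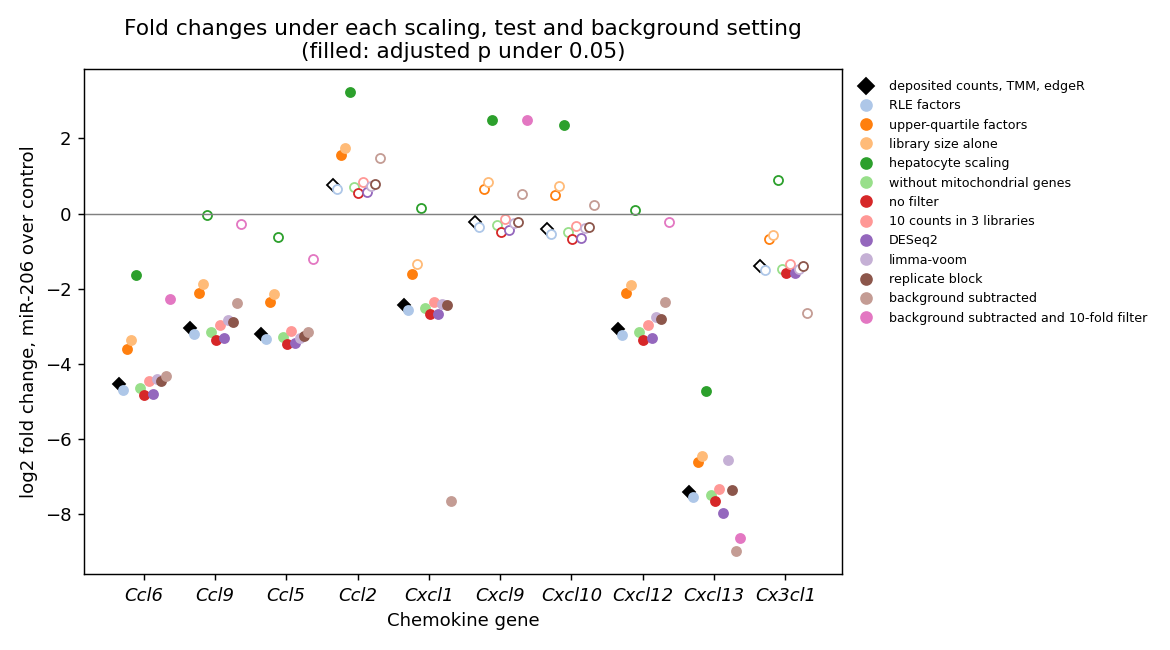
Log2 fold change of each chemokine gene, miR-206 over control, under the deposited-count fit and 12 alternatives of scaling, filter, test and background, with filled symbols for an adjusted p under 0.05. Ccl6 and Cxcl13 stay negative and filled throughout, whereas Cxcl9 and Cxcl10 lie on both sides of 0. The fit with the 10-fold filter kept members through the controls alone, so its filled symbols support no call. Values for Cxcl13, and for Cxcl1 after subtraction, rest on miR-206 counts near 0 and on the prior count.

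Among 31 other chemokine ligand genes, 14 had enough counts to be tested, of which 4 fell and 1 rose, with a median log2 fold change of 0.23. Of all tested genes, 29.6% fell and 25.8% rose. Cxcl16, a transmembrane ligand of Cxcr6, fell from 37.5 ± 4.33 to 8.06 ± 1.01 CPM (-2.21, SE 0.31, edgeR adjusted p = 0.000415). Ccl27a (-3.62, SE 0.50) and the platelet chemokine Ppbp (-4.00, SE 0.73) fell as well. Both stood at or near the background in miR-206 libraries, at 0.350 to 1.27 and 0 to 0.869 times it. Ccl27a has a related copy, Ccl27b, that was counted at 0 in all 6 libraries, as were Ccl21a, Ccl21b and Ccl21c, and reads of such copies may be lost or shared.

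Of 23 receptor genes, which mark the cells that respond, 18 were tested. Among these 4 fell and 3 rose, against 29.6% and 25.8% of all tested genes, with a median of 0.18. Ccr2, the monocyte receptor of Ccl2, fell from 11.2 ± 1.05 to 1.78 ± 0.645 CPM (-2.66, SE 0.42, edgeR adjusted p = 0.000711). Ackr2, a receptor that clears inflammatory CC chemokines, fell too (-2.27, SE 0.61). Both lay under the background in every miR-206 library, at 0.226 to 0.501 times it. The receptors of the Cxcl9 and Cxcl10 pair, of Cxcl12 and of Cx3cl1 gave few counts. Cxcr3 was counted at 12, 57 and 41 in control cells and 5, 6 and 0 in miR-206 libraries and was not tested, and Cxcr4 and Cx3cr1 did not pass. Cxcr3, Cxcr4 and Cx3cr1 are named for their ligands among the members, after their values were seen.

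Cytokines and signalling genes known to induce chemokines fell in 17 of 25 tested genes and rose in 1, of 29 listed, with a median of -1.82. The shares over all tested genes were 29.6% and 25.8%. The interferon regulatory factor Irf1 fell from 40.7 ± 3.82 to 3.93 ± 0.701 CPM (-3.38, SE 0.33, edgeR adjusted p = 0.000271). The Toll-like receptor adaptor Myd88 (-4.20, SE 0.43) and the NF-κB subunit Rela (-4.06, SE 0.43) also fell. In the miR-206 libraries these 3 genes stood at 0.657 to 1.81 times the background. With hepatocyte scaling 0 of the 25 fell and 5 rose, where 0.767% of all tested genes fell and 61.8% rose. The cytokine that rose was Il6, counted at 28, 33 and 21 in control cells and at 89, 66 and 73 in miR-206 libraries (1.78, SE 0.36, edgeR adjusted p = 0.00268), at 5.74 to 7.53 times the background there and 3.91 to 9.74 times in the controls. This single name lies outside the rule for named genes and was chosen after its values were seen.

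Of the proteases known to trim or shed chemokines, Ctss, a macrophage cathepsin that cleaves Cx3cl1, fell (-4.01, SE 0.68, edgeR adjusted p = 0.00104). Adam10, which sheds Cx3cl1 and Cxcl16 from the membrane, fell as well (-1.45, SE 0.31, adjusted p = 0.00364). Dpp4, which inactivates Cxcl9, Cxcl10 and Cxcl12 by removing their first residues, had 137 ± 27.5 and 98.6 ± 35.1 CPM and did not pass (-0.47, adjusted p = 0.353). Adam17, another sheddase, did not pass either (-0.15, adjusted p = 0.673). Thus 2 of the 4 fell and 0 rose, where 29.6% of all tested genes fell and 25.8% rose. The falls depended on the scale. With hepatocyte scaling 0 of the 4 fell and 2 rose, where 0.767% of all tested genes fell and 61.8% rose. Markers of hepatocytes, the cell type named on the labels, fell in 21 of 25 genes and rose in 0, with a median log2 fold change of -3.19. The share of all tested genes that fell was 29.6%.

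**Figure D4:**
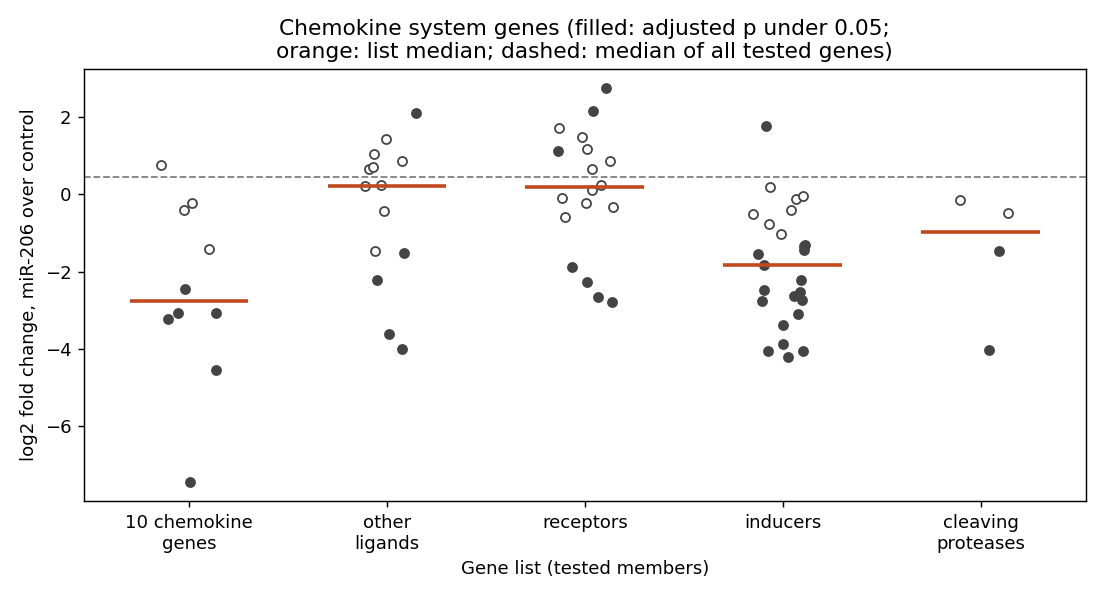
Log2 fold changes, miR-206 over control, of the tested genes in the 10 chemokine genes and 4 lists of the chemokine system, with filled points for an adjusted p under 0.05, orange lines at list medians and a dashed line at the median of all tested genes (0.45). The medians of the 10 genes (-2.75), of the inducers (-1.82) and of the cleaving proteases (-0.96) lie below the dashed line. Those of other ligands (0.23) and receptors (0.18) lie close to it.

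The protein-coding genes most like the mean log2 CPM of the 10 members over the 6 libraries, by Pearson's r, were Ube2e3, Sept2, Mrpl38, Eif3c and Taldo1, at 0.9993 to 0.9998. The symbol of Sept2 is stored as a date in the deposited table and was restored by its identifier. Of 11274 genes compared, 526 had an r over 0.99, and all points share the group difference and the depth of 6 libraries.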

How the data were processed

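Gene expression was profiled in bulk in 3 control and 3 miR-206 libraries of hepatocytes from mice, made from total RNA with a SMARTER mRNA kit, per the labels' protocols. The authors deposited raw counts per Ensembl gene, with 1 column for each sample. Per the submitters' processing notes the builds were GRCm38 and mm10. An aligner, a counting tool and whether counting used strand were not given in the sources used here.

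Counts were filtered with filterByExpr (minimum count 10), scaled by TMM and tested with the quasi-likelihood F test of edgeR 4.0.16 (robust fit, group as the single term) over all 24382 genes kept, with Benjamini-Hochberg adjustment at 0.05. Depth ran from 4157947 to 15244017 counts. CPM in the text are scaled by TMM, and log2 CPM use a prior count of 2. Positions and exonic lengths (all annotated exons merged) came from GENCODE M21, on GRCm38, which matched 49056 of 49315 identifiers. Background was the density of counts over 1429 protein-coding olfactory and vomeronasal receptor genes. Ratios were compared by exact permutation. Promoter and microRNA sequences came from RefSeq (GRCm38.p6). DESeq2 1.42.0, limma 3.58.1, R 4.3.3, Python 3.11.15, scipy 1.17.1 and Biopython 1.88 were also used. The fitting script was tested on simulated data.

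The members, lists and tests were chosen with earlier results of these data known. Named genes are the 10 members, the 3 genes with the smallest p of each other list (1 receptor gene is not reported here), the 4 proteases, and the 5 genes most like the members' mean profile with at least 5 CPM. Markers were listed for Kupffer, sinusoidal endothelial, stellate, bile duct, T and NK, B and plasma, neutrophil, monocyte and dendritic, platelet and hepatocyte cells. The alternatives were other scalings, filters, tests, a replicate block, background subtraction, and each library left out in turn.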

Additional observations from a re-analysis of the deposited data

How the results depend on the processing

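Of the 10 chemokine genes, 6 to 7 fell and 0 rose with each library left out in turn, and the 6 that fell kept their direction and passed in all 6 such fits. Cx3cl1 was the additional one without miR-206 replicate 2 and Cxcl10 without control replicate 1 (-0.70, adjusted p = 0.0376). Nothing in the labels says that a replicate number marks 1 mouse. Same-numbered libraries had correlations of deviations of 0.0082, 0.0230 and -0.0064, and not every library correlated best with its own number. With so few libraries in each group, these values cannot show whether libraries share a mouse. By the design text both groups were sorted from the injected mice, so the 6 libraries may not be independent. With the number as a replicate block, 12059 genes passed against 13502, and 6 members fell.

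Without a filter and by DESeq2, 7 members fell, Cx3cl1 being the additional one. Members that rose numbered 1 with upper-quartile factors, 1 with library size alone, 3 with hepatocyte scaling and 1 after background subtraction with the 10-fold filter, and members that fell numbered 2 with hepatocyte scaling and 2 with that filter, which kept members through the controls alone. The log2 fold change turned positive with hepatocyte scaling for Cxcl1 (0.14), Cxcl12 (0.09) and Cx3cl1 (0.90). For Cxcl9 it was 0.64 with upper-quartile factors, 0.84 with library size alone, 2.48 with hepatocyte scaling, 0.51 after subtraction and 2.50 after subtraction with the filter. For Cxcl10 it was 0.48, 0.72, 2.36 and 0.23 in the first 4 of these, and the filter removed the gene. The cause was not tested.

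Over all genes, 10629, 11642 and 15058 rose with upper-quartile factors, library size alone and hepatocyte scaling, and 837 with the background filter, which tests fewer genes. Genes that fell numbered 3774 with library size alone, 187 with hepatocyte scaling and 677 with that filter. With 1 library left out, 1916 (without miR-206 replicate 3) to 10674 (without control replicate 1) rose and 6202 to 8858 fell. Risen genes came to 2109, 2966 and 4185 after omitting miR-206 replicate 1, miR-206 replicate 2 or control replicate 3.

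Of the other ligands, those that rose numbered 4, 6 and 8 under the same 3 scalings, 2 without mitochondrial genes, 2 without a filter, 2 by DESeq2 and 0 with the background filter, and 0 (without miR-206 replicate 1 or 3) to 6 (without control replicate 1) with 1 library left out, with 2 without control replicate 2 or 3. Those that fell numbered 0 with hepatocyte scaling, 10 without a filter, 9 by DESeq2, 0 with the background filter, and 4 to 5 with 1 library left out. Receptors that rose numbered 8, 9 and 10 under the 3 scalings, 1 with the background filter, and 0 (without miR-206 replicate 2) to 7 (without control replicate 1) with 1 library left out, with 1 without miR-206 replicate 1 or 3. Receptors that fell numbered 2, 1 and 0 under the 3 scalings, 7 without a filter, 7 by DESeq2, 2 after subtraction, 0 with the background filter, and 2 (without control replicate 2 or 3) to 5 with 1 library left out. Inducers that rose numbered 2, 2 and 5 under the 3 scalings and 1 with each library left out. Inducers that fell numbered 11 with library size alone, 0 with hepatocyte scaling, 4 with the background filter, and 15 to 18 with 1 library left out. At 4157947 to 5724329 counts, the limit that a count of 0 allows was 0.379 to 0.546 normalised CPM.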

Other observations

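Some chemokine genes below the filter on low counts differed in which libraries held reads. Cxcl14 had 8, 4 and 12 counts in control cells and 0 in each miR-206 library. Ccl1 had 2, 2 and 3 counts in control cells against 26, 5 and 22 in miR-206 cells, at 0.585 to 2.07 times their background. Ccl17 gave 36 counts over the controls and 2 over the miR-206 libraries, a ratio of 0.0680 (95% counting interval 0.00793 to 0.264) after scaling. Cxcl14, Ccl1 and Ccl17 were picked from their values and have no test.

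Without TMM scaling, the 10 genes together took 147, 369 and 319 CPM in control cells against 125, 81.4 and 74.1 in miR-206 cells. Control 1 and miR-206 library 1 were close to each other on this scale, from 1315 and 519 counts.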
